A study of Mus musculus with 6 samples.

Results

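Of the 53458 genes that could be counted, 10 genes of antigen presentation were examined in AML blasts from mice. They are *H2-K1* and *H2-D1* (the classical class I heavy chains), *B2m* (their light chain), *Tap1*, *Tap2* and *Tapbp* (peptide transport and loading), *Psmb8* and *Psmb9* (subunits of the immunoproteasome), *Nlrc5* (a regulator of class I transcription) and *Cd1d1* (a heavy chain that presents lipids). They were chosen by name, their transcripts were matched to gene symbols, and the estimated reads of the transcripts were summed per gene. All 10 genes passed the filter on low counts and were tested among 22170 genes.

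Blasts were sorted from the bone marrow of 3 Cebpa-/p30 Tet2+/+ mice (mice 19, 23 and 24) and 3 Cebpa-/p30 Tet2-/- mice (mice 5, 7 and 8, called TET2-deficient below), with 1 RNA-seq library per mouse. Both groups carry a *Cebpa* allele that makes only the short isoform p30 and lack the other *Cebpa* allele, and *Tet2* is the labelled difference between them. Per the study's methods, lethally irradiated recipients received marrow from single donors carrying Mx1-Cre, whose floxed alleles were then deleted by injections of Poly(I)-Poly(C), a synthetic double-stranded RNA. Each library came from a separate mouse, and the age of each mouse at sampling is not given in the sources used here. The recipients were female, and marrow was collected when they were moribund. Median survival after the injections was shorter with TET2-deficient marrow in the study, so age and time since injection can differ with genotype. The sort kept live donor cells without the T cell, B cell and erythroid surface markers of the gate, so other myeloid cells of the donor could remain. In such bulk samples, fewer cells of a type and less RNA per cell cannot be told apart.

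MHC class I molecules carry peptides from inside the cell to its surface, where CD8+ T cells read them. Proteasomes cut the peptides, the TAP1-TAP2 transporter moves them into the endoplasmic reticulum, tapasin (*Tapbp*) holds the transporter and the empty heavy chain together, and the loaded heavy chain leaves with β2-microglobulin. Interferons raise most of these genes, through IRF1 and through NLRC5, a cofactor that acts at class I promoters together with RFX, NF-Y and CREB/ATF proteins. CD1d is built like a class I heavy chain and also pairs with β2-microglobulin, but it presents lipids to NKT cells and is loaded in endosomes, without TAP. TET2 oxidizes methylated cytosines and so takes part in DNA demethylation.

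The libraries held between 13036643 and 32855343 estimated reads, and the largest was mouse 5. Early granulocyte markers were high in every mouse, with sums between 5089 and 6991 CPM (reads scaled to library size, with TMM factors that correct for differences in library composition), while the summed T cell markers were at most 96.9 CPM. The summed markers of neutrophils ran from 10350 CPM in mouse 23 to 111138 CPM in mouse 7. Monocyte and macrophage markers ran from 1696 CPM in mouse 24 to 4815 CPM in mouse 8. The stem and progenitor markers summed to between 293 and 429 CPM in Tet2+/+ mice and between 145 and 179 CPM in TET2-deficient mice. At the level of the whole gene, *Tet2* was between 73.6 and 98.3 CPM in Tet2+/+ mice and between 79.4 and 111 CPM in TET2-deficient mice, which does not check the deletion, since transcripts of the rest of the gene are counted too. *Cebpa* was between 140 and 287 CPM in Tet2+/+ mice and between 75.6 and 158 CPM in TET2-deficient mice, and overlapped.

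The promoters of the classical heavy chains, of *B2m* and of *Tap1* are shown because these genes shared an order of mice, given with their values, and because the factors named above bind there. The sequences come from a table of RefSeq promoters (GRCm38.p6), in which 7 of the 10 genes were matched, and run from 250 bases before to 50 bases after the annotated start. *Tap2*, *Nlrc5* and *Cd1d1* were not matched in it. Short motifs were searched on both strands, and their matches are in capitals in the lines that follow. They are the core of the interferon-stimulated response element (ISRE; GAAANNGAA), a kappa-B core (GGGATTCCC), the CREB/ATF half-site (TGACG), the NF-Y box (CCAAT) and a TATA box (TATAAA). *H2-K1* is on the reverse strand at chr17:34000284-34000583, *H2-D1* on the forward strand at chr17:35262844-35263143, *B2m* on the forward strand at chr2:122147437-122147736 and *Tap1* on the forward strand at chr17:34187306-34187605.
H2-K1: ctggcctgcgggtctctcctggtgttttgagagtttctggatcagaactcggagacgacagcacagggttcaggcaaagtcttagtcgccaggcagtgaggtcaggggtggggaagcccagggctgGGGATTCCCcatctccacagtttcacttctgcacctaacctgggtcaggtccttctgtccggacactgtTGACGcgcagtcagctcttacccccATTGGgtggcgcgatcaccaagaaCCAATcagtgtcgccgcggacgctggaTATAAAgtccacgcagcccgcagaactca
H2-D1: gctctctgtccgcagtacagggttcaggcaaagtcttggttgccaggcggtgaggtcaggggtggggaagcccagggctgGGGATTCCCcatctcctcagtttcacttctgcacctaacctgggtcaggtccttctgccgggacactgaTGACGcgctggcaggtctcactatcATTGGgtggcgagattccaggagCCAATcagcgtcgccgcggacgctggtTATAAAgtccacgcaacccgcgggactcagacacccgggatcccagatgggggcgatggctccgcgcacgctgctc
B2m: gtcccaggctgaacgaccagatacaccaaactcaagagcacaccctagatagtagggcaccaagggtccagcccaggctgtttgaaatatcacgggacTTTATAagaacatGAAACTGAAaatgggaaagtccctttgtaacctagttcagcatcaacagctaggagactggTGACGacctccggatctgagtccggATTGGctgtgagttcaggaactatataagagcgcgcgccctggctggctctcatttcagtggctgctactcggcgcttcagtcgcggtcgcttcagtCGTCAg
Tap1: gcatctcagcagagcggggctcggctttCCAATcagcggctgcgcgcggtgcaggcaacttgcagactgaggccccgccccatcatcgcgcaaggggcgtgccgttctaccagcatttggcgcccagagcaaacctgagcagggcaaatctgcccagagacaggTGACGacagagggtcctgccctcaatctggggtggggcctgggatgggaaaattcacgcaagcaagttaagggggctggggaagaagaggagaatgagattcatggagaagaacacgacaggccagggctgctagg

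*H2-K1* and *H2-D1* hold the same matches in the same order, namely a kappa-B core, a CREB/ATF half-site, an NF-Y box on each strand and a TATA box. Counting the annotated start base as 0, the kappa-B core begins at -124 in *H2-K1* and at -170 in *H2-D1*. These exact letters are in 0.353% of 32851 promoters (116 promoters of 112 genes). Of those 116, 3 belong to *H2-K1*, which has a second annotated start nearby, and *H2-D1*. Kappa-B sites with other letters were not searched, so this share does not say how common such sites are. *B2m* holds an ISRE core at -139, a motif in 8.56% of promoters. Interferon elements with other letters were not searched, so a promoter without this match may still hold one. A CREB/ATF half-site stands at -78 in *B2m* and at -86 in *Tap1*, and is in 20.8% of all promoters, while the NF-Y box is in 37.4% and the TATA box in 13.6%. The *Tap1* promoter shares 275 bases with that of *Psmb9*, which starts in the opposite direction. No matches overlapped each other in these promoters, and a match is a description of letters, not a bound site.

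Which presentation genes differed between Tet2+/+ and TET2-deficient blasts was asked first. By the quasi-likelihood test in edgeR, with p adjusted by the method of Benjamini and Hochberg over all genes, 0 of the 10 genes passed an adjusted p of 0.05, where 0.0451% of all tested genes did in either direction. At an unadjusted p under 0.05, 1 of the 10 genes passed, *Cd1d1*, which was lower, where 8.11% of all genes passed in either direction and 5.12% in the lower one. In fitted fold change, 9 genes lay above 0 and 1 below, and the median log2 change was 0.40, against 0.00 over all genes. *Cd1d1* was also the only one of the 10 genes whose mice did not overlap between genotypes. Among genes with a mean CPM of 1 or more, 7.71% had every TET2-deficient mouse below every Tet2+/+ mouse and 8.24% the reverse.

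**Figure D1:**
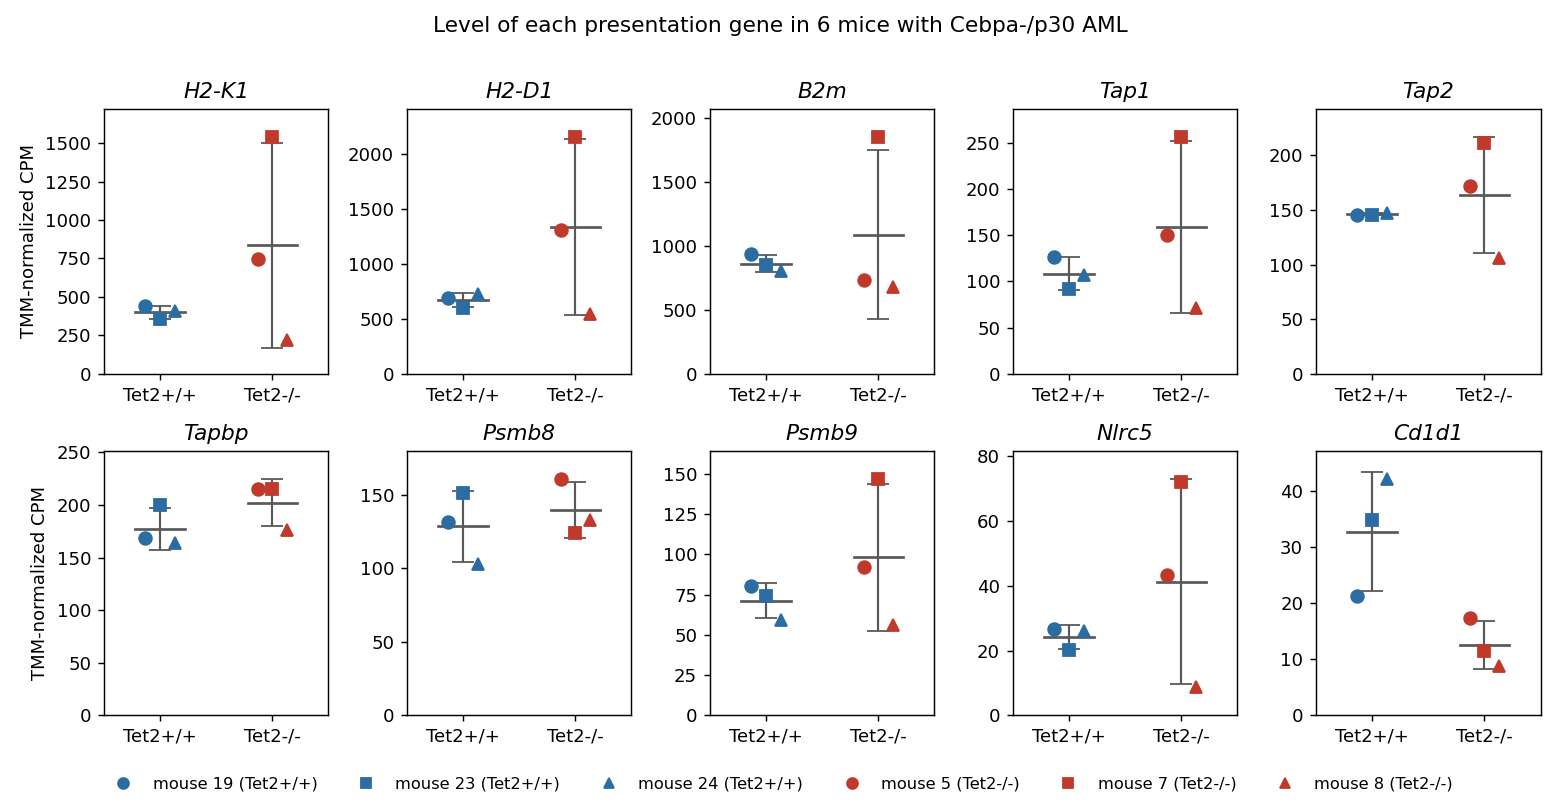
TMM-normalized CPM of each presentation gene in each mouse (vertical axis, linear and starting at 0, scaled per gene), with the mean as a line and the SD as a bar for 3 Tet2+/+ mice (blue) and 3 TET2-deficient mice (red). The TET2-deficient mice enclose the Tet2+/+ mice in H2-K1, H2-D1, B2m, Tap1, Tap2, Psmb9 and Nlrc5, and lie below them in Cd1d1.

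The most abundant gene per length was *B2m*, with 964 ± 35.4 TPM (a level scaled for transcript length; SD, n = 3) in Tet2+/+ mice. *H2-D1* followed at 412 ± 58.6 TPM and *H2-K1* at 233 ± 15.5 TPM (SD, n = 3 each), and the 3 genes did not overlap. *Tap2* (104 ± 11.1 TPM), *Psmb8* (90.4 ± 17.4 TPM), *Tapbp* (80.6 ± 14.5 TPM) and *Psmb9* (70.8 ± 9.34 TPM) came next, and neighbours in this order differed by no more than the larger of their SDs (n = 3 each). *Tap1* was at 38.7 ± 4.76 TPM, *Cd1d1* at 24.3 ± 9.90 TPM and *Nlrc5* lowest at 5.22 ± 0.733 TPM (SD, n = 3 each). In TET2-deficient mice the last places were exchanged, with *Nlrc5* at 7.89 ± 4.55 TPM and *Cd1d1* at 7.20 ± 2.38 TPM (SD, n = 3 each), which lie within their spread.

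Each classical heavy chain varied little among Tet2+/+ mice and widely among TET2-deficient mice. *H2-K1* (ENSMUSG00000061232, chromosome 17 of GRCm38 from 33996017 to 34000347) was at 438, 356 and 407 CPM in mice 19, 23 and 24, and at 750, 1536 and 217 CPM in mice 5, 7 and 8. Mice 5 and 7 thus lay above every Tet2+/+ mouse and mouse 8 below them, and the highest TET2-deficient mouse had 7.08 times the level of the lowest, against 1.23 times among Tet2+/+ mice. The log2 fold change was 1.06 (standard error, SE, 0.61, adjusted p = 0.702, edgeR). *H2-D1* (ENSMUSG00000073411, chromosome 17 from 35262730 to 35267499) was at 686, 598 and 732 CPM in mice 19, 23 and 24, and at 1306, 2153 and 547 CPM in mice 5, 7 and 8. It had the same order of TET2-deficient mice, with a log2 change of 0.99 (SE 0.46, adjusted p = 0.643, edgeR). *H2-K1* made up 36.3% ± 1.78 of the summed TPM of both genes in Tet2+/+ mice and 36.5% ± 6.85 in TET2-deficient mice (SD, n = 3 each; two-sided exact permutation p = 1). Within the TET2-deficient group that share was 42.8% in mouse 7 and 29.2% in mouse 8.

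*B2m* (ENSMUSG00000060802, chromosome 2 from 122147686 to 122153083), on which all these heavy chains depend for a stable fold, was at 932, 846 and 800 CPM in mice 19, 23 and 24, and at 733, 1844 and 675 CPM in mice 5, 7 and 8. Here mouse 7 stood alone above all the others, while mice 5 and 8 lay below every Tet2+/+ mouse. The log2 fold change was 0.34 (SE 0.41, adjusted p = 0.868, edgeR), and it was -0.29 without mouse 7. Unlike the heavy chains, *B2m* in mouse 5 was thus not above the Tet2+/+ mice.

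Of the genes that move and load peptides, the transporter subunits had the same order of TET2-deficient mice as the heavy chains, with smaller differences, and tapasin did not. *Tap1* (ENSMUSG00000037321, chromosome 17 from 34187553 to 34197225) was at 127, 91.6 and 107 CPM in mice 19, 23 and 24, and at 150, 256 and 70.8 CPM in mice 5, 7 and 8, a log2 change of 0.55 (SE 0.43, adjusted p = 0.784, edgeR). *Tap2* (ENSMUSG00000024339, chromosome 17 from 34203527 to 34216321) varied little among Tet2+/+ mice, between 146 and 148 CPM, and was at 172, 211 and 106 CPM in mice 5, 7 and 8. Its log2 fold change was 0.16 (SE 0.26, adjusted p = 0.907, edgeR). The *Tap2* counts come mostly from 1 transcript annotated as a retained intron, which took 79.3% ± 0.949 of the *Tap2* reads in Tet2+/+ mice and 78.7% ± 1.21 in TET2-deficient mice (SD, n = 3 each). *Tapbp* (ENSMUSG00000024308, chromosome 17 from 33915899 to 33929292) was at 169, 200 and 164 CPM in mice 19, 23 and 24, and at 215, 215 and 176 CPM in mice 5, 7 and 8. Its mice overlapped between genotypes, its spread was as small in TET2-deficient mice as in the others, and its log2 fold change was 0.19 (SE 0.17, adjusted p = 0.824, edgeR).

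The immunoproteasome replaces the 3 catalytic subunits of the constitutive proteasome by PSMB8, PSMB9 and PSMB10, which alters where proteins are cut. *Psmb9* (ENSMUSG00000096727, chromosome 17 from 34181987 to 34187764) was at 80.4, 74.4 and 58.9 CPM in mice 19, 23 and 24, and at 91.9, 147 and 56.1 CPM in mice 5, 7 and 8, with a log2 change of 0.46 (SE 0.34, adjusted p = 0.775, edgeR). *Psmb8* (ENSMUSG00000024338, chromosome 17 from 34197721 to 34201454) was at 131, 151 and 103 CPM in mice 19, 23 and 24, and at 161, 124 and 133 CPM in mice 5, 7 and 8. *Psmb9* thus kept the order of the heavy chains, as did *Tap1* next to it on the chromosome. *Psmb8*, on the other side of *Tap1*, did not, with mouse 7 the lowest of the TET2-deficient mice. Its log2 change was 0.12 (SE 0.20, adjusted p = 0.913, edgeR). *Psmb10* was at 38.9, 62.0 and 39.9 CPM in Tet2+/+ mice and at 60.9, 35.7 and 55.0 CPM in TET2-deficient mice 5, 7 and 8, also without that order.

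The balance of each immunoproteasome subunit with the constitutive subunit it replaces was compared as a log2 ratio of TPM, in 3 ratios. For *Psmb8* over *Psmb5* the ratio was 0.81 ± 0.10 in Tet2+/+ mice and 0.50 ± 0.26 in TET2-deficient mice (SD, n = 3 each), a difference of -0.32. No mice overlapped in it (two-sided exact permutation p = 0.1, as low as 3 against 3 mice can give), but mouse 24 at 0.7407 and mouse 7 at 0.7405 were level. For *Psmb9* over *Psmb6* the ratio was 1.47 in mouse 7 and -0.28 in mouse 8, on either side of the Tet2+/+ mice at 0.34 ± 0.14 (SD, n = 3), and the exact permutation test gave p = 0.9. For *Psmb10* over *Psmb7* it was 0.50 ± 0.35 against 0.40 ± 0.18 (SD, n = 3 each; exact permutation p = 0.7). Adjusted over these 3 ratios by the Benjamini-Hochberg method, the smallest of the exact permutation p was 0.3. *Psmb5* alone was at 64.2, 65.1 and 51.5 CPM in Tet2+/+ mice and between 62.7 CPM (mouse 7) and 97.1 CPM (mouse 8) in TET2-deficient mice (log2 fold change 0.49, adjusted p = 0.629, edgeR).

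*Nlrc5* (ENSMUSG00000074151, chromosome 8 from 94434356 to 94527272) had the widest spread of the 10 genes. It was at 26.7, 20.1 and 26.2 CPM in mice 19, 23 and 24, and at 43.2, 72.0 and 8.79 CPM in mice 5, 7 and 8. The highest TET2-deficient mouse had 8.20 times the level of the lowest, against 1.33 times among Tet2+/+ mice, and mice 5 and 7 lay above and mouse 8 below every Tet2+/+ mouse, as in the heavy chains. The log2 fold change was 0.77 (SE 0.64, adjusted p = 0.804, edgeR).

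The order of mice was therefore compared over the genes. Mouse 7 was the highest and mouse 8 the lowest of the 6 mice in 7 of the 10 genes (*H2-K1*, *H2-D1*, *B2m*, *Tap1*, *Tap2*, *Psmb9* and *Nlrc5*), and in 5.20% of the 13839 genes with a mean CPM of 1 or more. Mouse 7 alone was highest in 7 of the 10 genes (25.2% of all genes) and mouse 8 alone lowest in 8 (15.3% of all genes). The SD of log2 CPM was larger in TET2-deficient than in Tet2+/+ mice for 8 of the 10 genes, where 70.4% of 13587 genes also had the larger SD there. In size, the median SD of the 10 genes was 0.19 in Tet2+/+ and 0.75 in TET2-deficient mice, and over all genes it was 0.25 and 0.39. These counts are descriptions with no test, since the order was noticed in these mice.

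**Figure D2:**
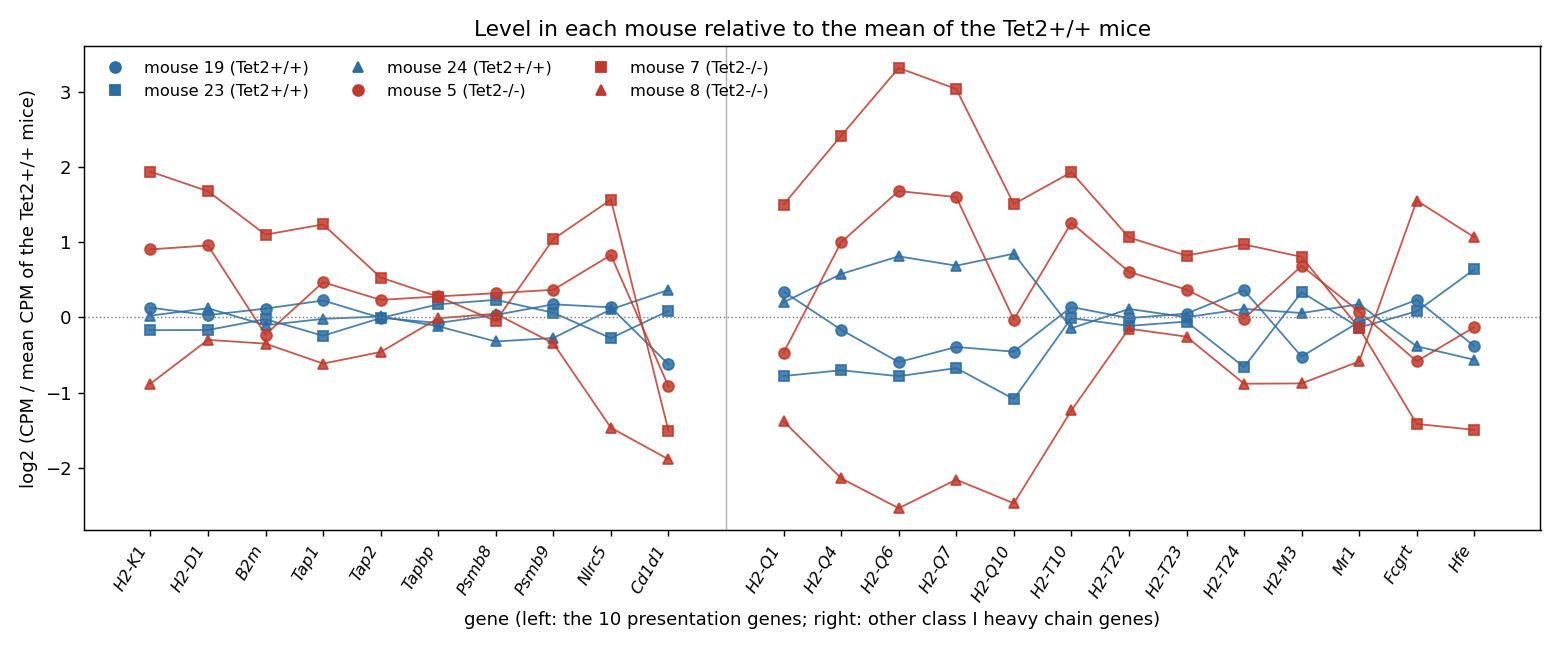
Log2 of the CPM in each mouse over the mean CPM of the Tet2+/+ mice (vertical axis), for the 10 presentation genes (left) and the other class I heavy chain genes with a mean CPM of 1 or more (right), with 1 line per mouse. Mouse 7 lies on top and mouse 8 at the bottom in 7 of 10 genes on the left and 10 of 13 on the right, and all TET2-deficient mice lie below 0 in Cd1d1.

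Leaving out mouse 8 or mouse 7 shifted the fold changes in opposite directions. Without mouse 8, 5 genes (*H2-K1*, *H2-D1*, *Tap1*, *Psmb9* and *Nlrc5*) were higher in TET2-deficient mice at an unadjusted p under 0.05 by edgeR, where 4.13% of all genes then were, and 0 passed the adjusted threshold. Mouse 8 was the lowest mouse in each of these 5 genes, so leaving it out raised their fold changes by construction. Without any other single mouse, 0 of the presentation genes were higher at that unadjusted threshold. The log2 fold change without mouse 8 was 1.51 for *H2-K1*, 1.36 for *H2-D1* and 1.24 for *Nlrc5* (adjusted p = 0.398, 0.397 and 0.397, edgeR). Without mouse 7 it was 0.28 for *H2-K1*, 0.47 for *H2-D1*, 0.11 for *Nlrc5* and 0.033 for *Tap1*. The fitted difference in these genes thus depended on whether mouse 7 or mouse 8 was included.

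**Figure D3:**
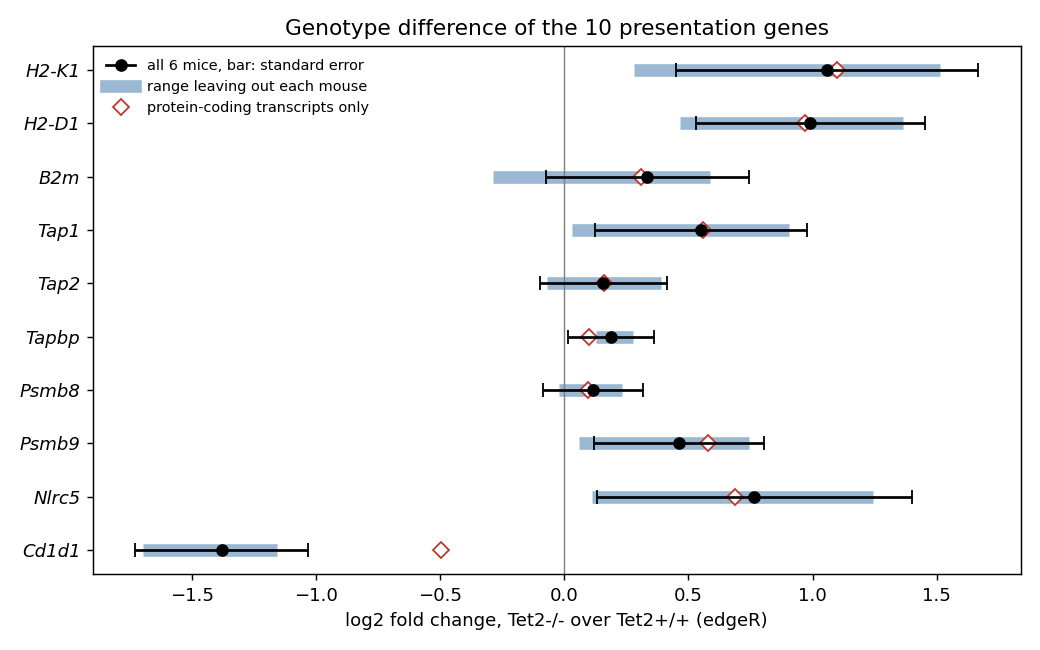
Log2 fold change of TET2-deficient over Tet2+/+ mice from edgeR for each presentation gene (horizontal axis), with the standard error as a bar on the black point, the range when each mouse was left out in blue, and the value from protein-coding transcripts only as an open diamond. Only Cd1d1 lies away from 0 under each left-out mouse by more than 1 on the log2 scale, from -1.69 to -1.16, and its diamond at -0.50 stands apart from its point at -1.38.

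The other class I heavy chain genes mostly had this order of mice too. Of 23 listed, 18 were tested, 14 lay above 0 and 4 below, the median log2 change was 0.39, and 0 passed the adjusted threshold of edgeR. At an unadjusted p under 0.05, 1 was lower (*Cd1d2*, described with *Cd1d1*) and 0 were higher, where 5.12% and 3.0% of all genes were. Mouse 7 was highest and mouse 8 lowest in 10 of the 13 with a mean CPM of 1 or more, and the 3 without that order were *Mr1*, *Fcgrt* and *Hfe*, which present vitamin metabolites, bind IgG and regulate iron uptake. *H2-Q6*, a nonclassical gene of the Qa region, was at 22.1, 19.4 and 58.7 CPM in mice 19, 23 and 24, and at 107, 334 and 5.75 CPM in mice 5, 7 and 8. Its TET2-deficient mice differed 58.0-fold, the widest of these genes, and its log2 fold change was 2.16 (SE 1.16, adjusted p = 0.679, edgeR). *H2-Q7* was at 45.2, 37.2 and 95.7 CPM against 180, 488 and 13.3 CPM in the same mice (log2 fold change 1.94, adjusted p = 0.679, edgeR). Without mouse 7 the log2 fold change was 0.77 for *H2-Q6* and 0.71 for *H2-Q7*, and it was 2.84 for *H2-Q6* without mouse 24 and 2.89 for *H2-Q7* with protein-coding transcripts only. *H2-T22*, a ligand of γδ T cells, was at 33.2, 30.9 and 36.1 CPM against 50.9, 69.9 and 30.1 CPM. Genes of the Qa region are near copies of each other, so the division of reads between them is uncertain. When *H2-K1*, *H2-D1* and the other listed genes named H2 were summed into 1 gene before the fit, the log2 fold change was 1.05 (adjusted p = 0.678, edgeR).

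Among 19 regulators of class I transcription, 0 passed an adjusted or an unadjusted p of 0.05 by edgeR (8.11% of all genes passed the latter), 0 were called by either DESeq2 fit, and the median log2 fold change was 0.13. *Irf1*, which interferons induce, was at 74.3, 85.2 and 81.4 CPM in mice 19, 23 and 24, and at 89.0, 150 and 61.9 CPM in mice 5, 7 and 8. Mouse 7 was thus on top and mouse 8 at the bottom, as in the heavy chains. The NF-kappa-B subunit *Rela* was at 71.9, 77.8 and 73.5 CPM against 97.8, 91.5 and 89.5 CPM, without overlap (log2 fold change 0.32, adjusted p = 0.623, edgeR). *Atf1*, of the CREB/ATF family, did not overlap either (0.41, adjusted p = 0.623, edgeR), and the NF-Y subunit *Nfyb* did (0.46, adjusted p = 0.629, edgeR). *Rfx5*, of the RFX complex, was at 24.5, 34.8 and 24.9 CPM against at most 22.9 CPM in TET2-deficient mice, with a log2 fold change of -0.36 (adjusted p = 0.701, edgeR). In all, 4 of the 19 regulators were without overlap in the higher direction, against 8.24% of genes with a mean CPM of 1 or more, and 1, *Rfx5*, in the lower direction, against 7.71%.

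Of 36 interferon receptor and response genes tested, 16 lay above 0 and 20 below, and the median log2 change was -0.08. Mouse 7 was highest and mouse 8 lowest in 2 of the 35 with a mean CPM of 1 or more, a share near the 5.20% of all such genes. At an unadjusted p under 0.05, 3 were lower by edgeR (5.12% of all genes) and 0 higher (3.0% of all genes), and either fit of DESeq2 called 0 after adjustment. *Ifit3* was at 3.71, 7.81 and 7.46 CPM in mice 19, 23 and 24, and at 1.64, 2.51 and 2.82 CPM in mice 5, 7 and 8 (log2 fold change -1.45, adjusted p = 0.491, edgeR). *Gbp4*, a guanylate-binding protein, was at 6.10, 10.5 and 15.9 CPM against 5.31, 5.21 and 2.39 CPM (-1.33, adjusted p = 0.582, edgeR), but its log2 fold change was -0.39 when only protein-coding transcripts were counted. *Ifit1* was at 3.89, 3.21 and 3.17 CPM against 1.83, 2.31 and 1.19 CPM (-0.94, adjusted p = 0.605, edgeR).

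Of 12 other loading and trimming genes, 1 was higher at an unadjusted p under 0.05 by edgeR (3.0% of all genes) and 0 were lower, and the median log2 change was -0.03. *Derl1*, which takes part in moving misfolded proteins out of the endoplasmic reticulum, was at 164, 152 and 106 CPM in Tet2+/+ mice and at 191, 209 and 212 CPM in TET2-deficient mice (log2 fold change 0.54, adjusted p = 0.599, edgeR). *Calr*, a chaperone of class I assembly, was at 1048, 1324 and 1060 CPM against 901, 576 and 868 CPM, without overlap (-0.55, adjusted p = 0.640, edgeR). *Erap1*, which trims peptides in the endoplasmic reticulum, overlapped (-0.35, adjusted p = 0.708, edgeR). Of 17 other proteasome genes, 16 lay above 0 and 0 passed an adjusted or an unadjusted p of 0.05 by edgeR, where 8.11% of all genes passed the latter, with a median of 0.18. *Psmb3* was the only one of the 16 with a mean CPM of 1 or more that was without overlap, against 8.24% of all such genes in that direction (0.32, adjusted p = 0.680, edgeR). Of 8 ligands of receptors linked to class I recognition, 0 passed either threshold of edgeR (8.11% of all genes at the unadjusted one), and DESeq2 on the same counts called 0 in these 3 lists. *Cd47*, the signal against phagocytosis, was at 287, 271 and 345 CPM against 523, 327 and 286 CPM.

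*Cd1d1* (ENSMUSG00000028076, chromosome 3 from 86995834 to 86999441) was lower in TET2-deficient mice. It was at 21.2, 34.8 and 42.2 CPM in mice 19, 23 and 24, and at 17.3, 11.5 and 8.84 CPM in mice 5, 7 and 8. Every TET2-deficient mouse lay below every Tet2+/+ mouse, although mouse 5 and mouse 19 were close. The means were 32.7 ± 10.6 and 12.6 ± 4.34 CPM (SD, n = 3 each), 2.61-fold lower in TET2-deficient mice, and the two-sided exact permutation p was 0.1, which it cannot go below here. The log2 fold change was -1.38 (SE 0.35, adjusted p = 0.403, edgeR). Mouse 8 was lowest here as in the class I genes, but mouse 7, the highest there, was the second lowest here.

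Whether *Cd1d1* was called depended on the test. DESeq2 on the same counts gave a log2 change of -1.38 with an adjusted p of 0.0267, where it called 1.47% of all genes lower. On the length-scaled values that the study used, DESeq2 gave -1.61 with an adjusted p of 0.0143, where it called 1.44% of all genes lower. *Cd1d1* was the only one of the 10 genes that either fit called. Over the other edgeR settings with all 6 mice and all transcripts, the adjusted p was between 0.240 and 0.404.

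*Cd1d1* has 5 annotated transcripts, of which Cd1d1-202 had 0 reads in every mouse, and the difference lay mainly in the 3 annotated as retained introns, which hold intronic sequence and are not annotated as coding. The protein-coding transcripts, with all their reads on Cd1d1-201, were at 7.13, 11.4 and 7.09 CPM in mice 19, 23 and 24, and at 8.02, 5.52 and 5.10 CPM in mice 5, 7 and 8. These overlapped (two-sided exact permutation p = 0.3). The retained-intron transcripts were at 14.1, 23.4 and 35.1 CPM against 9.31, 5.96 and 3.74 CPM in the same mice, with no overlap (two-sided exact permutation p = 0.1), and each of the 3 alone was without overlap too. Their share of the *Cd1d1* reads was 72.3% ± 9.43 in Tet2+/+ mice and 49.3% ± 6.14 in TET2-deficient mice (SD, n = 3 each). When only protein-coding transcripts were counted for every gene, an alternative chosen after these values were seen, the log2 fold change of *Cd1d1* was -0.50 (adjusted p = 0.734, edgeR). Salmon divides reads between overlapping transcripts, so this split is an estimate.

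**Figure D4:**
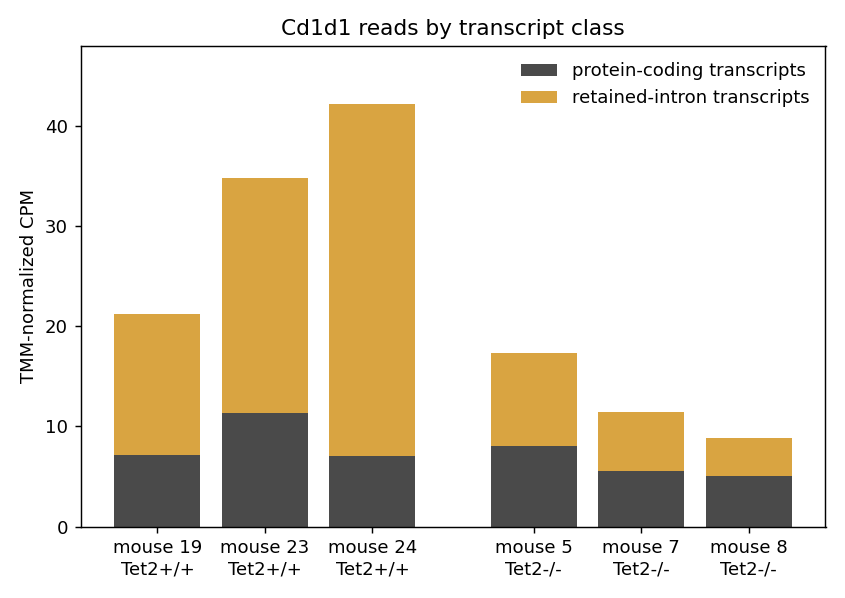
TMM-normalized CPM of Cd1d1 (vertical axis, linear) in each mouse, stacked from protein-coding (dark) and retained-intron (yellow) transcripts. The dark parts run from 5.10 to 11.4 CPM and overlap between genotypes, while the yellow parts are between 14.1 and 35.1 CPM in Tet2+/+ mice and between 3.74 and 9.31 CPM in TET2-deficient mice.

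Over all genes, retained-intron transcripts held between 7.07% and 7.82% of the reads in Tet2+/+ mice and between 6.76% and 7.01% in TET2-deficient mice, so the same direction was present in the libraries as a whole, and its part in the *Cd1d1* difference was not tested. Among the other 9 genes, the share of retained-intron reads was without overlap for *Psmb9* alone, at 33.3% ± 5.31 against 23.5% ± 6.78 (SD, n = 3 each). For *Tapbp* the share of protein-coding reads was without overlap, at 84.0% ± 0.388 against 81.4% ± 1.56 (SD, n = 3 each).

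*Cd1d2*, the neighbouring near copy of *Cd1d1* (chromosome 3 from 86986551 to 86989780), was at 0.84, 0.59 and 1.55 CPM in mice 19, 23 and 24, from 11 to 22 reads, and had at most 3 reads in any TET2-deficient mouse. Its level was at least 6.60-fold lower there, with 3 reads taken as the floor in each TET2-deficient library (adjusted p = 0.290 by edgeR and 0.0174 by DESeq2 on the same counts). *Cd1d2* lies under the mean of 1 CPM used for naming and was chosen after its values were seen. Of the windows of 75 bases in Cd1d1-201, 19.4% also occur in *Cd1d2*, so reads of both can be exchanged. Of such windows, 7.10% in H2-D1-202 and 1.55% in H2-K1-201 occur in other genes, and none in B2m-201, Tap1-201 and Nlrc5-201. On either strand, 16.5% of the windows of Tapbp-201 occur in *Gm19412*, 6.53% of those of Psmb8-203 in *Gm20496* and 10.8% of those of Psmb9-204 in *Tap1*. Of the windows of Tap2-201, 8.97% occur in *Gm15821* or *Gm20496*. The library kit does not mark strand, so reads there cannot be told apart. Only the protein-coding transcript with most reads was searched in each gene. The retained-intron transcripts, which hold most *Tap2* reads and most of the *Cd1d1* difference, were not covered.

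The genes that load lipids on CD1d did not share its direction as a list. Of 16 tested, 12 lay above 0 and 4 below, and the median log2 change was 0.14. At an unadjusted p under 0.05 by edgeR, 1 was lower and 2 higher, where 5.12% and 3.0% of all genes were. *Mttp*, which transfers lipids to CD1d in the endoplasmic reticulum, was at 11.4, 10.7 and 14.5 CPM in mice 19, 23 and 24, and between 2.51 CPM (mouse 7) and 9.46 CPM (mouse 5) in TET2-deficient mice (log2 fold change -1.14, adjusted p = 0.613, edgeR, and -1.81 without mouse 5). *Ctsd*, a lysosomal protease, was at 421, 461 and 413 CPM against 595, 614 and 619 CPM (0.50, adjusted p = 0.564, edgeR). *Rab7*, a GTPase of late endosomes, was at 308, 275 and 259 CPM against 363, 444 and 372 CPM (0.49, adjusted p = 0.591, edgeR). In each of these 3 genes the mice did not overlap. The only other of the 16 without overlap was *Ap2m1*, of the adaptor complex for endocytosis, which makes 1 gene without overlap in the lower direction (7.71% of genes with a mean CPM of 1 or more) and 3 in the higher (8.24%). DESeq2 on the same counts called 1 of the 16 genes, *Ctsd*, as higher (adjusted p = 0.0176), where 0.266% of all genes were. On length-scaled counts DESeq2 called 0 of the 16 genes (0.287% of all genes as higher), so the call of *Ctsd* was lost.

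Cell type markers differed alongside several of these values. The summed neutrophil markers were at 54591, 10350 and 38268 CPM in mice 19, 23 and 24, and at 60155, 111138 and 23505 CPM in mice 5, 7 and 8, so among TET2-deficient mice they followed the order of *H2-K1*. Among Tet2+/+ mice the sum was in the order of *H2-K1* as well, highest in mouse 19 and lowest in mouse 23, where *H2-K1* stayed within 1.23 times. Of the 8 neutrophil markers, 0 had mouse 7 highest and mouse 8 lowest of the 6 mice. T cell markers summed to 96.9, 42.4 and 49.3 CPM in mice 19, 23 and 24, and to 34.5, 59.3 and 21.8 CPM in mice 5, 7 and 8, in the order of *H2-K1* within each genotype too. Of the 10 T cell markers, 4 (*Cd3e*, *Cd3d*, *Cd3g* and *Cd8a*) had mouse 7 highest and mouse 8 lowest, against 5.20% of all genes with a mean CPM of 1 or more. Monocyte and macrophage markers were at 3931, 2484 and 4815 CPM in mice 5, 7 and 8, in the reverse order, and 8 of those 10 markers lay above 0 in fold change. The summed plasma cell markers were at 146, 205 and 156 CPM against 77.8, 36.3 and 44.0 CPM, without overlap, and most of each Tet2+/+ sum was *Jchain*, at 98.4, 165 and 135 CPM against 44.1, 27.6 and 26.6 CPM. Of the 7 plasma cell markers with a mean CPM of 1 or more, 3 did not overlap and were lower (*Jchain*, *Derl3* and *Irf4*), against 7.71% of all such genes, and 4 overlapped. Of those 4, *Fkbp11* had the higher mean in TET2-deficient mice, with at most 3.17 CPM in Tet2+/+ mice against 15.8, 4.05 and 2.98 CPM. NK cell markers, of which all 8 lay below 0 in fold change (median log2 change -0.72), summed to 24.8, 36.9 and 35.4 CPM against 29.7, 18.4 and 8.95 CPM and overlapped. Of these, *Ncr1*, an activating receptor of NK cells, was at 4.48, 3.64 and 5.35 CPM against 1.42, 1.16 and 0.49 CPM, without overlap. The stem and progenitor sum was lower without overlap too, led by *Cd34*. The plasmacytoid dendritic cell marker *Siglech* was at 2.09, 2.41 and 1.62 CPM against 0.32, 0.39 and 0.43 CPM, although the sum of the 7 markers of those cells overlapped and 2 of the 6 tested, *Tcf4* and *Bst2*, lay above 0 in fold change. B cell markers, which mark cells that carry CD1d, summed to 62.6, 94.3 and 31.5 CPM against 72.3, 26.0 and 54.4 CPM and overlapped. MHC class II genes summed to 878, 1200 and 557 CPM against 865, 726 and 516 CPM and overlapped. The part of these cells in the values of the 10 genes was not tested.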

How the data were processed

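RNA from sorted AML blasts of 6 mice was sequenced by the authors from TruSeq libraries, whose kit does not mark strand, and quantified with Salmon 0.12.0 against Ensembl transcripts of GRCm38. The deposited estimated count values are reads per transcript, not normalized between mice. The deposited TPM values were scaled by the authors' Salmon run for transcript length and to the same total in each mouse. Here, estimated counts were summed per gene (GENCODE M21) and rounded. The 112 transcripts without a gene held 0.0307% to 0.0416% of reads and were left out. Genes with normalized counts summing to at least 10 were tested by quasi-likelihood in edgeR 4.0.16 (R 4.3.3, TMM, no covariates, Benjamini-Hochberg adjustment, threshold 0.05), and the biological coefficient of variation was 43.6%. Standard errors are fold changes over the square root of F. Single values were compared by exact two-sided permutation tests over 3 against 3 mice, whose smallest p is 0.1. Alternatives were DESeq2 1.42.0, length-scaled counts, no filter, filterByExpr, other scalings, robust estimation, leaving out each mouse, summed heavy chains and, added after the data were seen, protein-coding transcripts only. The genes and lists were chosen with earlier results of these data known. Named were the 10 genes, *Tet2*, *Cebpa*, *Psmb5*, *Psmb6*, *Psmb7*, *Psmb10*, *Irf1*, *Rfx5* and, per related list, up to 3 genes with a mean CPM of 1 or more and the smallest p, besides markers that moved with a gene. Other names were chosen after their values were seen. Windows of 75 bases of each gene's protein-coding transcript with most reads were matched to transcripts of other genes on both strands. Tables and figures were made with Python 3.11.15, pandas 2.3.3 and matplotlib 3.10.9. The authors' DESeq2 comparisons were not used, and some items are not reported here.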

Additional observations from a re-analysis of the deposited data

How the results depend on the processing

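With 3 mice per genotype, no exact permutation p can go below 0.1, and a missed threshold does not show that levels were alike. No paired analysis was possible because the mouse numbers are not shared between genotypes. For *Cd1d1*, the log2 fold change stayed below 0 under every alternative, and it passed the adjusted threshold with DESeq2 on the same counts (-1.38) and on length-scaled counts (-1.61). Over all genes, the count of lower genes, 10 with edgeR, was 326 with DESeq2, 322 with DESeq2 on length-scaled counts, 5 with edgeR on these, 62 without the filter and 1 with protein-coding transcripts only, and between 0 and 7 when each mouse was left out. The count of higher genes, 0 with edgeR, was 59 with DESeq2, 64 with DESeq2 on length-scaled counts, 4 without the filter, and 1 each with filterByExpr, RLE factors and summed heavy chains. Scaling by library size only shifted the median of all genes to -0.17 and turned the sign of *Tap2* (-0.038), *Psmb8* (-0.054), *Psmb10* (-0.061) and *Ulbp1* (-0.10), while *Psmb10* was also below 0 with protein-coding transcripts only (-0.14). With each mouse left out in turn, values on both sides of 0 were found for *B2m* (-0.29 to 0.59), *Tap2* (-0.069 to 0.39), *Psmb8* (-0.022 to 0.23), *Psmb10* (-0.058 to 0.34), *Irf1* (-0.089 to 0.57), *Cd274* (-0.76 to 0.10) and *Ulbp1* (-0.10 to 0.18). None of these genes was called under any setting. The cause was not tested. *H2-K1*, *H2-D1*, *Tap1*, *Tapbp*, *Psmb9* and *Nlrc5* kept their sign under every alternative, without passing the adjusted threshold in any.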
